A study of Brachypodium distachyon with 20 samples.

Results

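Transcript levels in the seed coat (SEC) of Brachypodium distachyon were compared with those of leaf late embryos (LEL) taken at the same time of grain development. The comparison used the 2 SEC and 2 LEL libraries of a series of 20, and it covered the 22902 of 23749 genes that stood above 0 log2 CPM (read counts scaled to the size of the library), that is above 1 CPM, in at least 2 of the 20 libraries and were not constant. All plants were of the ecotype Bd21, grew in long days, and set seed after their flowers had been emasculated and pollinated by hand. The SEC libraries came from pooled grains, and the LEL libraries from pooled dissected embryos of the leaf late stage. For the coat, GEO's sample labels state that the embryo was taken out, while the methods of the study state that embryo and endosperm were both taken out. Late endosperm (LEN, 2 libraries) of the same age served as a second tissue to set SEC against. The other groups were early endosperm (EEN) and the embryo stages TCQ (2-cell and quadrant), PEM (pre-embryo), TRA (transition), LEE (leaf early), LEM (leaf middle) and MAT (mature), with 2 libraries each. Whether both libraries of a group go back to different plantings or days of dissection is not stated, and the p-values therefore cover no more than the spread among the libraries at hand.

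The coat of a grass grain is maternal tissue: it derives from the integuments of the ovule, lies against the fruit wall, and carries the genotype of the mother plant, whereas embryo and endosperm arise from fertilization. It passes nutrients to the filling endosperm, seals the grain, and dies as the grain matures. The leaf late embryo has a scutellum, the grass cotyledon, and an axis with a shoot meristem, leaf primordia and a root meristem enclosed by coleoptile and coleorhiza, and it is approaching the storage phase.

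Coat and embryo differed at most genes. Of the 22902 genes, 17556 (76.7%) were called different at an adjusted p below 0.05 (limma, Benjamini-Hochberg), 8558 (37.4%) higher in SEC and 8998 (39.3%) lower. The 2 SEC libraries lay above the 2 LEL libraries without overlap at 42.0% of genes and below them at 44.1%. The median absolute difference was 1.19 log2 units, against a median absolute difference between the 2 libraries of a group of 0.154 in SEC and 0.218 in LEL. The differences ranged from -11.98 to 14.00, with a median of -0.017 and quartiles of -1.18 and 1.20. In bulk tissue, fewer cells of a type and less RNA per cell cannot be told apart.

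As deposited, the larger the difference, the more of the called genes were higher in SEC. At 1 log2 unit or more, 6316 genes (27.6%) were called higher in SEC and 6376 (27.8%) lower. At 2 or more the counts were 3691 (16.1%) and 3303 (14.4%), and at 5 or more they were 887 (3.87%) and 569 (2.48%). The counts at 5 or more were 422 higher and 172 lower on the log2(CPM + 1) scale, on which 1966 genes were lower by 2 or more, and 652 and 363 without the genes that had an SEC or LEL library at the lowest shared value. The balance of directions rested on the scaling of the libraries. The deposited CPM summed to 1061883 and 1060126 in the SEC libraries, against 777864 and 739963 in the LEL libraries. Of the called genes, 48.7% were higher in SEC on the deposited scale, against 35.9% (6446 genes higher and 11525 lower) when all libraries were set to one sum, which moved the median difference to -0.501. On that scale the balance turned round, to 2921 genes higher in SEC and 4564 lower at 2 or more, and 679 and 751 at 5 or more.

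**Figure D1:**
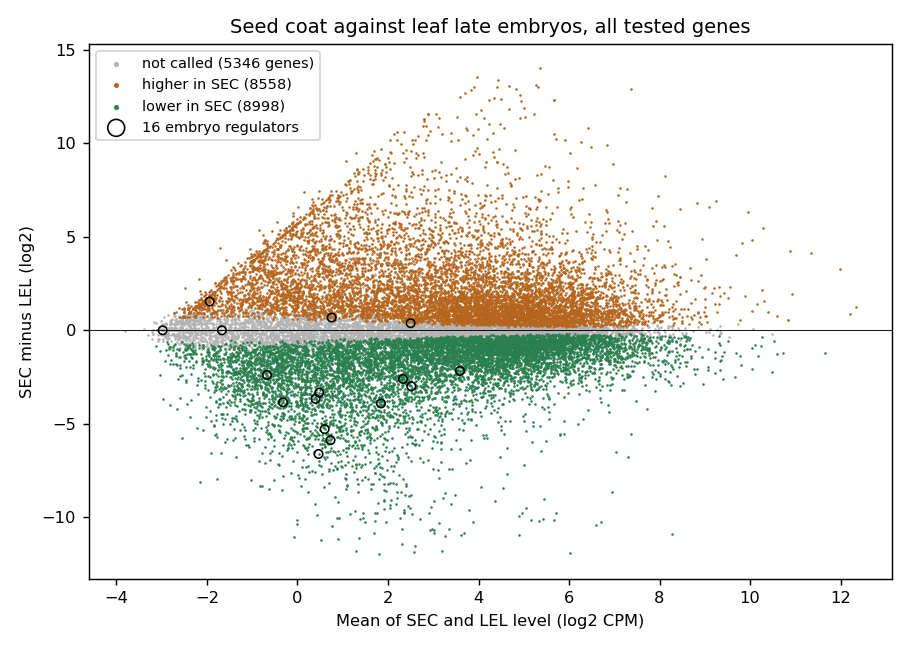
Difference between the SEC and LEL means (log2, vertical) against the mean of both groups (log2 CPM, horizontal), 1 point for each of 22902 genes, coloured by the limma call, with the 16 embryo regulators circled. The 8558 genes higher in SEC reach 14.00 and the 8998 lower ones -11.98, and most circles lie below 0.

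The SEC-higher genes made up a large part of the coat's transcripts. Genes called higher in SEC by 2 log2 units or more held 48.5% and 47.5% of the CPM in the SEC libraries, against 4.16% and 3.79% in the LEL libraries and 13.0% and 12.7% in the LEN libraries. Genes called lower by as much held 1.64% and 1.68% in SEC, against 25.1% and 23.5% in LEL and 15.0% and 16.9% in LEN. The genes were picked on the SEC and LEL values, so these shares are a description. The LEN libraries entered only the gene filter and the shared estimate of spread.

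Most of the transcriptome was present in both tissues, and the difference was mainly one of level. Both libraries stood above 1 CPM for 17500 genes in SEC and 17772 in LEL, and 15279 genes met this in both tissues. There were 1788 genes above 1 CPM in both SEC libraries and below it in both LEL libraries, and 1992 genes of the opposite pattern. Among transcripts with many reads (CPM is not scaled by gene length) the tissues were unequal. Of the 102 genes with an SEC mean of 10 log2 CPM or more, 23 (22.5%) had both LEL libraries below 1 CPM. Of these, 3 had both LEN libraries below 1 CPM too. Of the 47 genes at this level in LEL, 0 had both SEC libraries below 1 CPM. At 8 log2 CPM or more the same count was 63 of 593 SEC genes (10.6%) and 16 of 385 LEL genes (4.16%).

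The deposited values of many genes have a lowest level that several libraries share exactly, called the floor of the gene here, and a difference from a group at its floor has no defined size. Of the genes called higher in SEC, 446 had both LEL libraries at the floor. Of those called lower, 566 had both SEC libraries at it. Libraries at a shared floor show no spread and lower the shared estimate of it. The p-values of such genes therefore do not measure how those libraries vary.

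The genes with the largest differences were read for 2 identifiers in each direction, among called genes with a mean of at least 5 log2 CPM in the higher group. No gene names or descriptions could be paired with them. Bradi3g26391.1, on chromosome 3, stood at 12.42 and 12.31 log2 CPM in SEC, against -2.08 and -1.19 in LEL. Its values in LEN were 1.64 and 1.74. It was above 10 log2 CPM in both SEC libraries and below 1 CPM in both LEL libraries, a difference of 14.00 ± 0.47 log2 (SE, n = 2 libraries each; adjusted p = 5.84e-13 in the limma fit). Its mean was 4.14 in TCQ, 4.95 in PEM, 4.03 in TRA and 4.01 in LEE, against -1.01 in LEM. Set against SEC, its level differed by -8.22 log2 in TCQ and -7.41 in PEM, near the upper limits on SEC RNA carried into those libraries (-7.85 and -7.78).

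Bradi2g16290.1, on chromosome 2, stood at 10.77 and 10.73 log2 CPM in SEC, against -3.18 and -2.43 in LEL and -0.08 and 0.49 in LEN. Here too the SEC libraries lay far above all others, with a difference from LEL of 13.56 ± 0.25 log2 (SE; adjusted p = 2.21e-15, limma). The embryo means of Bradi2g16290.1 were 2.76 in TCQ, 4.51 in PEM and 2.81 in TRA, and they were below 0 from LEM on. Set against SEC, they differed by -7.99 log2 in TCQ and -6.23 in PEM. The 2 identifiers just before it on the chromosome were each higher in SEC by 5.55 log2. Both had the same listed means, 2.69 in SEC and -2.86 in LEL, and whether they share reads was not tested. By contrast, the 2 identifiers on either side of Bradi3g26391.1 differed by -1.56 to 0.05.

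In the other direction, Bradi4g09750.1, on chromosome 4, stood at -5.58 and -2.81 log2 CPM in SEC, against 7.91 and 7.66 in LEL. LEN had -5.66 and -2.25, as low as SEC. The SEC libraries lay below 1 CPM and differed more from each other than the LEL libraries did. The difference for Bradi4g09750.1 was -11.98 ± 1.06 log2 (SE; adjusted p = 4.52e-08, limma). Its transcript appeared late in the embryo, with a mean of -3.70 in LEE, 3.27 in LEM and 8.62 in MAT. The 2 identifiers before it were also lower in SEC, by differences of -7.32 and -7.91.

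Bradi2g28470.1, on chromosome 2, stood at -0.79 and 0.96 log2 CPM in SEC, against 12.34 and 11.58 in LEL. LEN was intermediate at 6.02 and 5.71. The gene was thus above 10 log2 CPM in both LEL libraries and near 1 CPM in SEC, a difference of -11.87 ± 0.71 log2 (SE; adjusted p = 4.53e-10, limma). Its embryo means were 3.57 in LEE, 7.15 in LEM and 11.73 in MAT. The identifier after it was lower in SEC by a difference of -9.78. The 2 identifiers before it were higher in SEC, by 0.57 and 1.43, and the second one after it differed by -0.2.

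**Figure D2:**
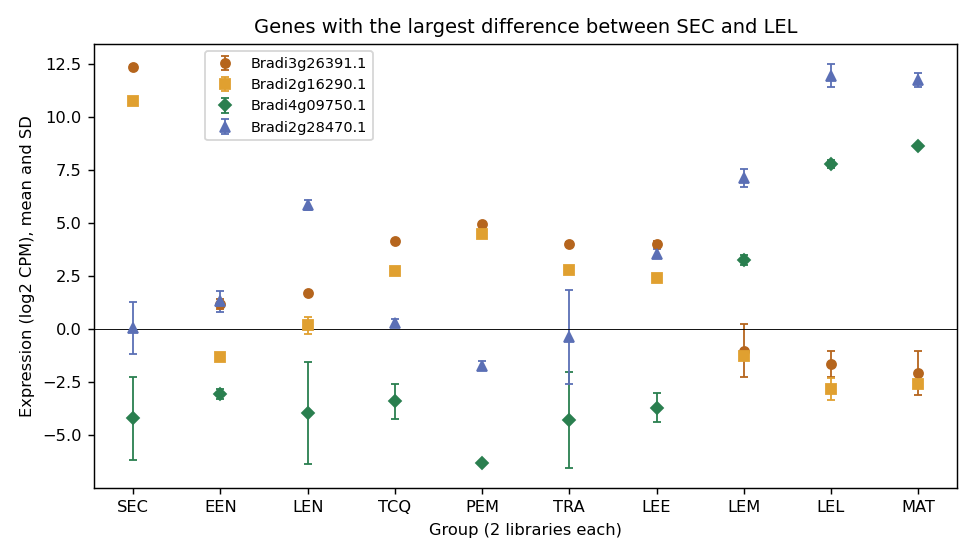
Level of the 4 identifiers (log2 CPM, mean and SD of 2 libraries) in SEC, both endosperm groups and the embryo stages in order. The 2 SEC-higher genes sit above 10 in SEC and below 0 from LEM to MAT, and the 2 SEC-lower genes are highest in LEL and MAT.

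The genes that separate SEC from LEL most were followed through the other groups. The 887 genes called higher in SEC by 5 log2 or more had a median level of 5.79 log2 CPM in SEC and -1.33 in LEL, values that the choice of genes fixed. The other groups entered only the gene filter and the shared estimate of spread, and among them the median was -0.20 in LEN and -0.41 in EEN. Along the embryo stages it was 1.37 in TCQ, 0.89 in PEM, -0.08 in TRA, 0.08 in LEE, -1.50 in LEM and -1.66 in MAT. The earliest embryos thus stood highest among the stages. Genes chosen as low in LEL can also be low in groups that resemble LEL, so this order describes the chosen genes only. SEC was the highest of the 10 groups for 805 of the 887 genes (90.8%), which follows largely from their choice. It was the highest for 52.5% of all genes called higher in SEC and for 4.55% of genes not called. The group next to SEC, or ahead of it, was TCQ for 317 genes (35.7%), LEN for 182 (20.5%) and PEM for 152 (17.1%). Among all 8558 genes called higher in SEC, the same shares were 18.8% for TCQ, 25.3% for LEN and 13.6% for PEM. Of the 887, 572 were above 1 CPM in both TCQ libraries, 434 in both LEE libraries and 246 in both LEL libraries.

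The 569 genes called lower in SEC by 5 log2 or more had a median of -2.19 log2 CPM in SEC and 4.40 in LEL. The median was 1.61 in LEN and -0.26 in EEN. Along the embryo stages it was 0.51 in TCQ, 1.15 in PEM, 1.72 in TRA, 2.57 in LEE, 3.76 in LEM and 3.87 in MAT. The choice of genes high in LEL limits the reading of this order in the same way. These genes were highest in MAT in 138 cases, in LEL in 133 and in LEN in 79, so no single group held most of their peaks.

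**Figure D3:**
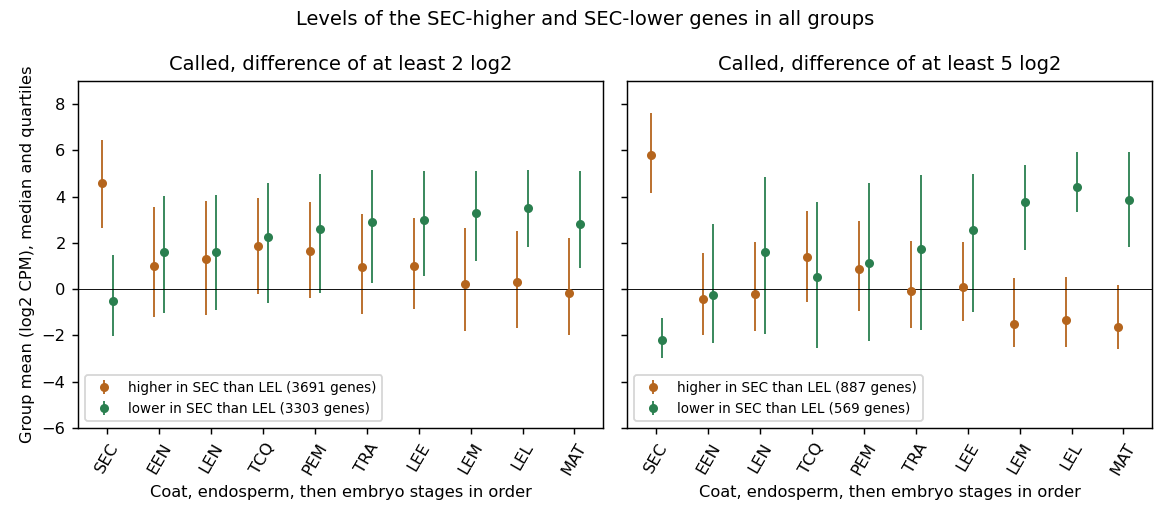
Median and quartiles of the group means (log2 CPM, vertical) of genes called higher or lower in SEC than in LEL by at least 2 log2 (left) and 5 log2 (right), in SEC, endosperm and embryo groups in order of stage. In the right panel the SEC-higher genes have a median of 5.79 in SEC and 1.37 in TCQ, and the SEC-lower genes reach 4.40 in LEL against 0.51 in TCQ.

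RNA of one tissue can enter the libraries of another during dissection. An upper limit on it was read from genes of at least 6 log2 CPM in the source tissue, as the 50th lowest ratio of their CPM in the receiving library to their mean in the source. These limits are percentages of the source level on the deposited scale, not shares of a library, because the sums of CPM differed among libraries. For LEL RNA in the SEC libraries they were 0.0995% and 0.169% of the LEL level. For LEN RNA in the SEC libraries they were 0.0578% and 0.101% of the LEN level. For SEC RNA in the LEL libraries they were 0.0637% and 0.0638% of the SEC level. The limits on SEC RNA were higher in young embryos. They were 0.404% and 0.464% of the SEC level in the TCQ libraries and 0.458% and 0.451% in the PEM libraries. Read as the 10th lowest ratio among genes of at least 9 log2 CPM, the limits were 0.204% and 0.19% in TCQ and 0.212% and 0.207% in PEM. As differences from the SEC level, the first limits were -7.85 log2 in TCQ and -7.78 in PEM. Of the 887 SEC-higher genes, 56 (6.31%) stood at or under the first limit in TCQ and 54 (6.09%) in PEM. With the other reading (-8.99 log2 in TCQ and -8.9 in PEM) the counts were 19 and 17. The limit is itself a rank among such ratios, so the counts follow largely from the rank chosen. They are no estimate of the share of genes with carried RNA. The median difference from SEC was -4.70 in TCQ and -5.09 in PEM. Bradi3g26391.1 and Bradi2g16290.1 lay under the first limit in TCQ and above it in PEM, and neither lay under the limits of the other reading. By their SEC levels, both are among the genes from which the limits were read. The part of carried RNA in the levels of young embryos was not tested.

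No coat genes could be paired with identifiers here, so the identity of the coat libraries was not checked directly. Embryo genes were read instead. Low levels of them can set SEC apart from embryo but cannot name it as coat, since LEN was low at them too. Without YUC3, the 15 regulators that mark the shoot apex, root centre, vascular, suspensor and ground tissue of the Arabidopsis embryo summed to 15.7 and 15.8 CPM in SEC, against 120.0 and 119.0 CPM in LEL. They summed to 29.2 and 31.2 CPM in LEN. With YUC3, a suspensor gene of auxin synthesis which was not called between SEC and LEL, the 16 regulators summed to 23.1 and 21.5 CPM in SEC, against 125.0 and 124.0 CPM in LEL. SEC was lower than LEL at 11 of the 16 (39.3% of all genes tested were called lower), higher at 1 (37.4% called higher), and 4 were not called. The median difference over the 16 was -2.80 log2, against -0.017 over all genes tested. Both libraries stood above 1 CPM for 5 of them in SEC, 13 in LEL and 4 in LEN. In SEC, 6 were listed at their floor in both libraries: WUS, KNAT1, CUC2, PLT1, WOX5 and SHR.

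The shoot apex genes were the largest group, and 4 of 6 were called lower in SEC. STM (Bradi1g57607.1), a homeobox gene that keeps the Arabidopsis shoot meristem undifferentiated, stood at -0.50 and -2.36 log2 CPM in SEC, against 2.45 and 2.01 in LEL. SEC was lower by a difference of -3.66 ± 0.44 log2 (SE; adjusted p = 1.75e-06, limma), with the second SEC library at the floor. The related KNAT1 (Bradi1g10047.2), which acts in the Arabidopsis shoot apex and stem, was listed at its floor of -2.20 in both SEC libraries, against 3.74 and 3.59 in LEL (adjusted p = 3.69e-11, limma). CUC2 (Bradi1g41712.2), which sets organ boundaries in Arabidopsis, was likewise at its floor of -2.25 in SEC, against 1.66 and 1.55 in LEL (adjusted p = 3.58e-10, limma).

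FIL (Bradi3g30410.1), a YABBY gene of the lower leaf side in Arabidopsis, was above 1 CPM in both SEC libraries. It stood at 0.83 and 1.24 log2 CPM in SEC, against 3.57 and 3.69 in LEL, a difference of -2.60 ± 0.39 log2 (SE; adjusted p = 1.74e-05, limma). LEN had -1.45 and -0.93, so SEC lay between embryo and endosperm, and it was above LEN by 2.22 ± 0.39 log2 (adjusted p = 8.26e-05, limma). The remaining shoot apex genes were low in both tissues. WUS (Bradi5g25113.1), which maintains shoot stem cells in Arabidopsis, was at its floor of -2.98 in all SEC, LEL and LEN libraries. ZPR3 (Bradi4g42250.1), a small leucine zipper protein that limits class III homeodomain factors in Arabidopsis, stood at -1.08 and -2.26 in SEC, against -1.78 and -1.56 in LEL, with the groups overlapping.

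Both root centre genes were at the floor in SEC. PLT1 (Bradi5g14960.1), an AP2-type gene that specifies the Arabidopsis root stem cell niche, was listed at -2.84 in both SEC libraries, against 3.83 and 3.71 log2 CPM in LEL (adjusted p = 1.58e-14, limma). WOX5 (Bradi2g55270.1), the homeobox gene of the quiescent centre, was listed at -1.87 in both SEC libraries, against 0.47 and 0.57 in LEL (adjusted p = 2.56e-06, limma). Both genes were at the floor in LEN as well. Fitted on the 4 SEC and LEL libraries only, the adjusted p (limma) was 7.02e-06 for PLT1 and 0.000378 for WOX5.

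The vascular genes ranged more widely. SHR (Bradi1g23060.1), whose protein moves out of the stele in Arabidopsis roots, was at its floor of -2.04 in both SEC libraries, against 3.34 and 3.13 log2 CPM in LEL (adjusted p = 3.64e-12, limma). WOL (Bradi3g59820.1), a cytokinin receptor, was well above the floor in SEC at 2.51 and 2.50, against 4.54 and 4.81 in LEL, and SEC was lower by a difference of -2.17 ± 0.23 log2 (SE; adjusted p = 3.58e-07, limma). LOG4 (Bradi2g42190.1), of the family that activates cytokinin, stood at 0.82 and 1.36 in SEC, against 0.17 and 0.66 in LEL. Its groups did not overlap, but the difference of 0.68 ± 0.30 log2 missed the threshold (adjusted p = 0.0527, limma). In LEN LOG4 stood at 2.20 and 2.34, above both.

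The suspensor pair diverged. WOX9 (Bradi2g16444.1), a homeobox gene of the Arabidopsis basal embryo, stood at -0.07 and -0.16 log2 CPM in SEC, against 3.80 in each LEL library, a difference of -3.91 ± 0.16 log2 (SE; adjusted p = 4.05e-12, limma). Its mean was 5.15 in EEN, above that in LEL, so its transcript was not confined to the embryo libraries. YUC3 (Bradi5g01327.2), of the flavin monooxygenases that make auxin, stood at 2.89 and 2.49 in SEC, against 2.30 and 2.33 in LEL. It was not called between them (0.38 ± 0.28 log2, adjusted p = 0.233, limma). In LEN it stood at -2.46 and -3.11, and SEC was above LEN by 5.47 ± 0.28 log2 (adjusted p = 6.39e-11, limma). The SEC and LEL values of YUC3 were thus close together and far above those in LEN.

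Among the ground tissue genes, SCR (Bradi4g44093.1), the partner of SHR in the Arabidopsis endodermis, stood at 1.19 and 0.85 log2 CPM in SEC, against 4.02 and 4.0 in LEL. The difference was -2.99 ± 0.13 log2 (SE; adjusted p = 1.03e-11, limma). MGP (Bradi2g08460.1), a zinc finger gene downstream of SHR and SCR in Arabidopsis, stood at -1.39 and -0.98 in SEC, against 2.32 and 1.97 in LEL (-3.33 ± 0.27 log2, adjusted p = 1.96e-08, limma). JKD (Bradi3g26910.2), a zinc finger gene that acts with SHR and SCR, went the other way at low levels. It stood at -1.13 and -1.21 in SEC and was listed at its floor of -2.71 in both LEL libraries (adjusted p = 0.000673, limma), so all 4 values were below 1 CPM.

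**Figure D4:**
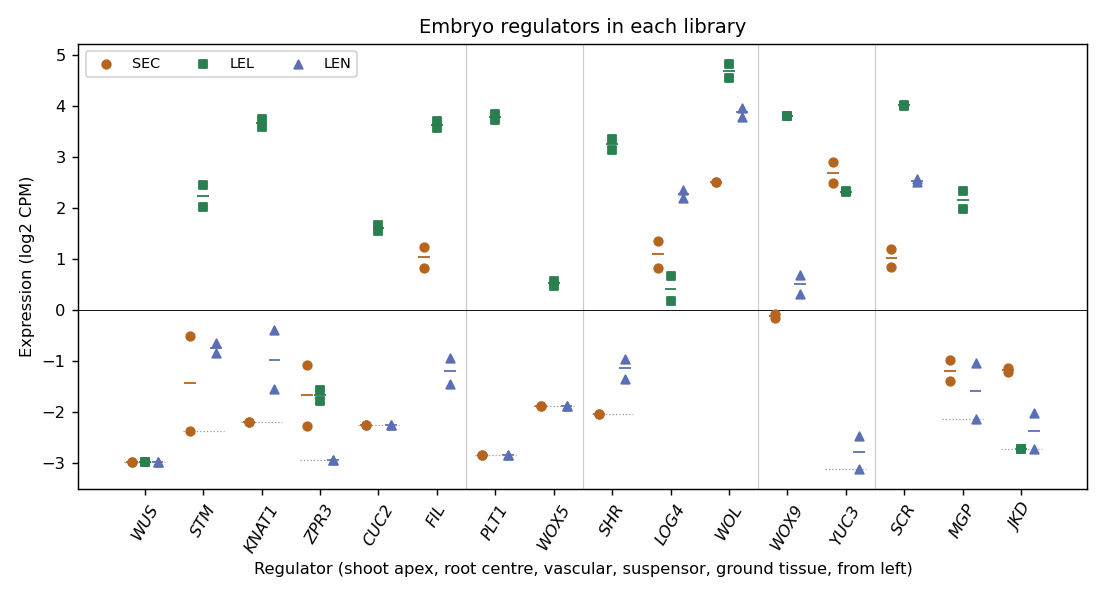
Level of the 16 regulators (log2 CPM) in each SEC, LEL and LEN library (points) with group means (short lines) and, where at least 2 of the 20 libraries share a lowest value, the floor (dotted). SEC lies below LEL for 11 genes and at the floor in both libraries for 6, and YUC3 is at 2.89 and 2.49 in SEC and below -2 in LEN.

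SEC was then set against LEN, the other tissue of the same grain age. Of the genes tested, 17415 (76.0%) were called, 7918 (34.6%) higher in SEC and 9497 (41.5%) lower, with a median absolute difference of 1.16 log2 units. This comparison uses the same SEC libraries as that with LEL, so both comparisons share them. Of the 16 regulators, 6 were called lower and 4 higher in SEC than in LEN. The SEC-higher identifiers stood apart from the endosperm as well: Bradi3g26391.1 was above LEN by 10.67 ± 0.47 log2 (adjusted p = 1.02e-11, limma) and Bradi2g16290.1 by 10.55 ± 0.25 log2 (adjusted p = 1.08e-14, limma). Bradi4g09750.1 was not called between SEC and LEN (-0.24 ± 1.06 log2, adjusted p = 0.858, limma), while Bradi2g28470.1 was lower in SEC than in LEN (-5.78 ± 0.71 log2, adjusted p = 2.14e-06, limma).

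Identifiers number the genes along each chromosome, so neighbours in the list are neighbours on the chromosome among the genes tested. The next identifier was called the same way for 40.0% of the genes higher in SEC (37.4% of all genes were) and for 41.3% of those lower (39.3%). For genes higher by 5 log2 or more it was 6.76%, beside 3.87% of all genes, and for genes lower by as much 6.85%, beside 2.48%. The longest run of genes higher by 2 log2 or more held 8 identifiers, on chromosome 5, with differences of 2.99 to 5.82, and the longest run lower by as much held 6, on chromosome 3. Neighbouring genes can be copies that share reads, and their part in these runs was not tested. The share of genes higher in SEC lay between 34.4% on chromosome 4 and 39.7% on chromosome 5.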

How the data were processed

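RNA was amplified to antisense RNA and sequenced by the authors, who quantified reads against representative Bd21 gene models (the submitters' processing notes name CASAVA, Trimmomatic and Salmon). The deposited values are log2 CPM, normalized by the authors. The depth of each library is unknown, and with it the counting error. Differences of group means were tested with limma 3.58.1 in R 4.3.3. The fit had a mean for each of 10 groups, a trended prior and Benjamini-Hochberg adjustment over 22902 genes. The code was first run on simulated data with 200 changed genes and independent noise. That setting differs from these data, where most genes were called, so it does not measure the error rate here. limma replaced the authors' count test because the values are not counts. A floor is the lowest value of a gene, shared within 1e-06 by at least 2 libraries. Named genes were 16 regulators with published identifiers and, by rule, the 2 called identifiers a direction with the largest difference, libraries that do not overlap and a higher mean of at least 5 log2 CPM. Of 31335 RefSeq genes, 0 matched the identifiers, so lists by description, coat and endosperm markers and sequences were not used here. Members and lists were chosen with earlier results of these data known. Alternatives covered filters, scaling, the pseudocount, the trend, the libraries fitted, the replicate number and single libraries left out.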

Additional observations from a re-analysis of the deposited data

How the results depend on the processing

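The number of genes called between SEC and LEL ran from 15415 of 19080 tested, with a minimum of 2 log2 CPM, to 17971 of 22902, with library sums set equal. As reported it was 17556 of 22902. The stricter filter left fewer genes to test, so these counts do not rank the settings by share. Setting library medians equal moved the median difference to -0.12 and gave 17595 calls, 45.9% of them higher in SEC. Leaving out 1 library gave 16388 to 16681 calls between SEC and LEL and 16413 to 16478 between SEC and LEN; the lone library was then assumed to vary like the other groups. With log2(CPM + 1) the counts at 5 log2 or more were 422 higher and 172 lower in SEC, and 1966 genes were lower by 2 or more. Without genes at a floor in any SEC or LEL library the counts at 5 or more were 652 and 363. This alternative and the equal sums were chosen after seeing the data. Of 287 repeats on named genes, 284 kept the call. In 8 repeats on 3 genes that were not called, the difference left 0 or its sign turned. WUS, at 0 as reported, moved to between -0.48 and 0.22. The sign turned for ZPR3 (-0.59 to -0.10) and, with library sums set equal, YUC3 (-0.11). LOG4 was called with quantile normalization (adjusted p = 0.0364, limma), without SEC replicate 1 (0.0289) and without LEL replicate 2 (0.0341). The limit on SEC RNA in LEL libraries averaged 0.0139% when read as the 10th lowest ratio among genes of at least 9 log2 CPM, and that on LEN RNA in SEC 0.0489% against 0.0796%. With the replicate number as a block, 17685 genes were called between SEC and LEL and 17564 between SEC and LEN. The labels give only 2 numbers, with no shared batch or day, so the libraries were not treated as pairs. The difference between replicates nonetheless correlated by more than 0.1 in 15 of 45 pairs of groups, which are all the pairs among LEM, LEL, MAT, EEN, LEN and SEC (0.205 for SEC and LEL, 0.237 for SEC and LEN), a hint from the data that same-numbered libraries of these groups vary together. Other pairs passed 0.1 in size with a negative sign, all with LEE: TCQ (-0.113), LEM (-0.114), LEL (-0.121) and EEN (-0.125). Precision is limited by 2 libraries a group and by unknown depth.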
